A study of Mus musculus with 2 samples.

Results

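The cells described here are macrophages of mouse liver tumours that carry RNA of complement C1q but little RNA of the genes that mark Kupffer cells, the macrophages seeded in the liver before birth. They were chosen by transcript counts, in unique molecular identifiers (UMIs, each 1 captured transcript). A barcode needed at least 200 genes and at most 20% mitochondrial UMIs. It also needed at most 1 UMI of the keratins Krt8 and Krt18, or under 0.1% of its UMIs from them. Of these barcodes, members had at least 3 UMIs of C1qa, C1qb and C1qc together, at most 1 of Cd5l, Clec4f and Fcna together, and 0 of the T cell genes Cd3d, Cd3e and Cd3g. The rule found 366 cells among 17473 barcodes, 252 of 9920 in the library named shCtrl and 114 of 7553 in the library named shSrsf10.

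Macrophages of a tumour engulf dying cells and debris, present peptides on MHC molecules and send chemokines to other leukocytes. Those in liver tumours come partly from Kupffer cells and partly from blood monocytes that mature in the tissue. C1q starts the classical complement cascade, and within tissues macrophages make most of it. Interferons, above all interferon gamma from T and NK cells, induce a set of antigen presentation, chemokine and antiviral genes in these cells.

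The shCtrl library came from mouse tumour with the genotype label WT, and the shSrsf10 library from tumour labelled with a short hairpin against Srsf10, an SR-type splicing factor. The series title names hepatocellular carcinoma and concerns this factor and tumour immunity. The labels speak of shSrsf10 mice and do not give the strain, age, sex or number of mice, the vector, or which cells carry the hairpin. They also conflict, since the series text names a 5' kit after digestion and a flow cytometry sort with no stated gate, while the sample text names a 3' kit after a slow spin that leaves most hepatocytes behind. With a single library on each side, differences could not be held against replicate spread, and the groups were compared without a test. All intervals are exact, at 95%, and cover counting error only.

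The label was checked against the 6 marker genes. C1qa (chromosome 4, 136895917 to 136898803), C1qb (chromosome 4, 136880129 to 136886187) and C1qc (chromosome 4, 136889804 to 136893065), whose RNA chose the cells, lie side by side on the minus strand of GRCm38. Their levels, in counts per 1000000 UMIs of the summed members (CPM), were 3319 and 3612 for C1qa, 4991 and 5259 for C1qb, and 3404 and 3756 for C1qc, in shCtrl and shSrsf10 in that order. The other 3 markers were not part of the rule. Ccl24, an eosinophil attractant (chromosome 5, 135569937 to 135573049), stood at 2844 CPM (2719 to 2974) in shCtrl and 3286 (3115 to 3465) in shSrsf10. Aif1, a calcium-binding protein of macrophages, stood at 1178 (1098 to 1263) and 1457 (1344 to 1578). Adgre1, the F4/80 antigen, stood at 109 (85.4 to 136) and 101 (72.6 to 136), with a UMI in 21.8% and 21.1% of members. All 6 markers were thus present in both libraries. Ccl24 also stood at 3144 CPM in the Kupffer-type cells of shCtrl, so it does not separate these kinds of macrophage.

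Of the Kupffer markers outside the rule, Vsig4, Timd4 and Marco were at or near 0 in members. Vsig4 had 0 UMIs in both libraries, which allows up to 5.42 and 8.84 CPM, and Timd4 had 3 and 0. Marco had 4 and 0 UMIs. In Kupffer-type cells of shCtrl, with at least 3 UMIs of Cd5l, Clec4f and Fcna, Vsig4 was at 275 CPM. Members were not without Kupffer genes, since a wider list of 15 summed to 3250 and 3677 CPM in them. Of its measured genes, 13 of 14 were lower in members than in Kupffer-type cells of shCtrl. Over monocytes, 3 of 5 were higher in members of shCtrl and 4 of 4 in shSrsf10, with 0 lower. At the edge of the rule, 29 and 13 members had 3 or 4 C1q UMIs, with Aif1 at 658 and 817 CPM. The 112 and 38 barcodes just outside, with 1 or 2 C1q UMIs, had Aif1 at 66.5 and 385 CPM. At the Kupffer limit, 39 and 4 members held 1 such UMI, and 19 and 3 barcodes with 2 were left out. Slc40a1, the iron exporter that Kupffer cells express, stood at 258 and 479 CPM in those left out and at 89.6 and 86.3 in members. C1q UMIs per member ran from 3 to 210 in shCtrl and from 3 to 294 in shSrsf10, with a median of 19 in both.

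**Figure D1:**
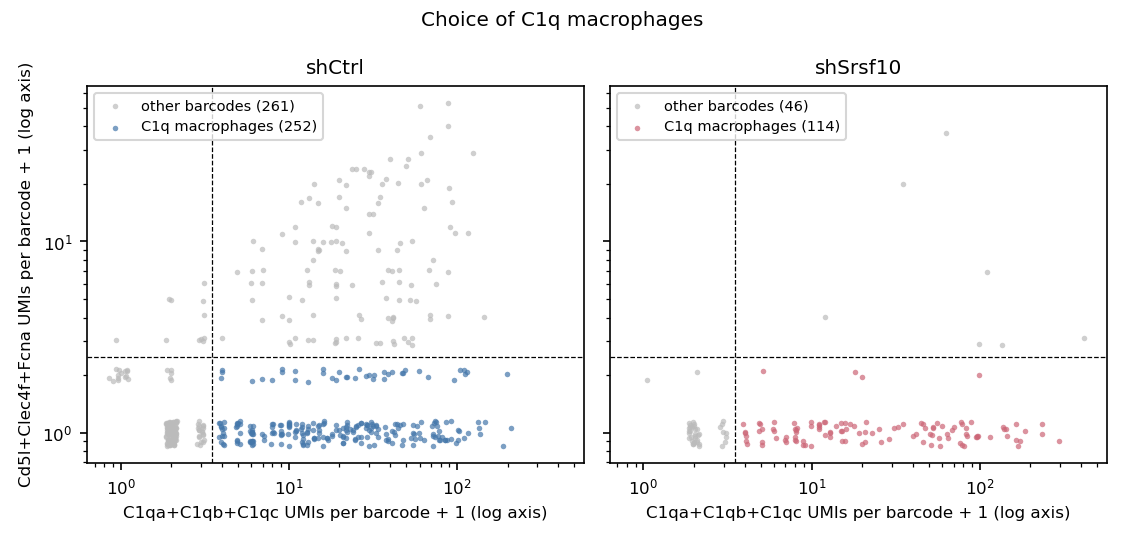
UMIs of the 3 C1q genes (horizontal, plus 1, log axis) against UMIs of Cd5l, Clec4f and Fcna (vertical, plus 1, log axis), with 1 point per barcode and a small jitter, one panel per library; dashed lines are the limits of the rule. The 252 shCtrl and 114 shSrsf10 members lie at the lower right, and the upper right corner, with Kupffer-type cells, is well filled in shCtrl and holds few barcodes in shSrsf10.

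**Figure D2:**
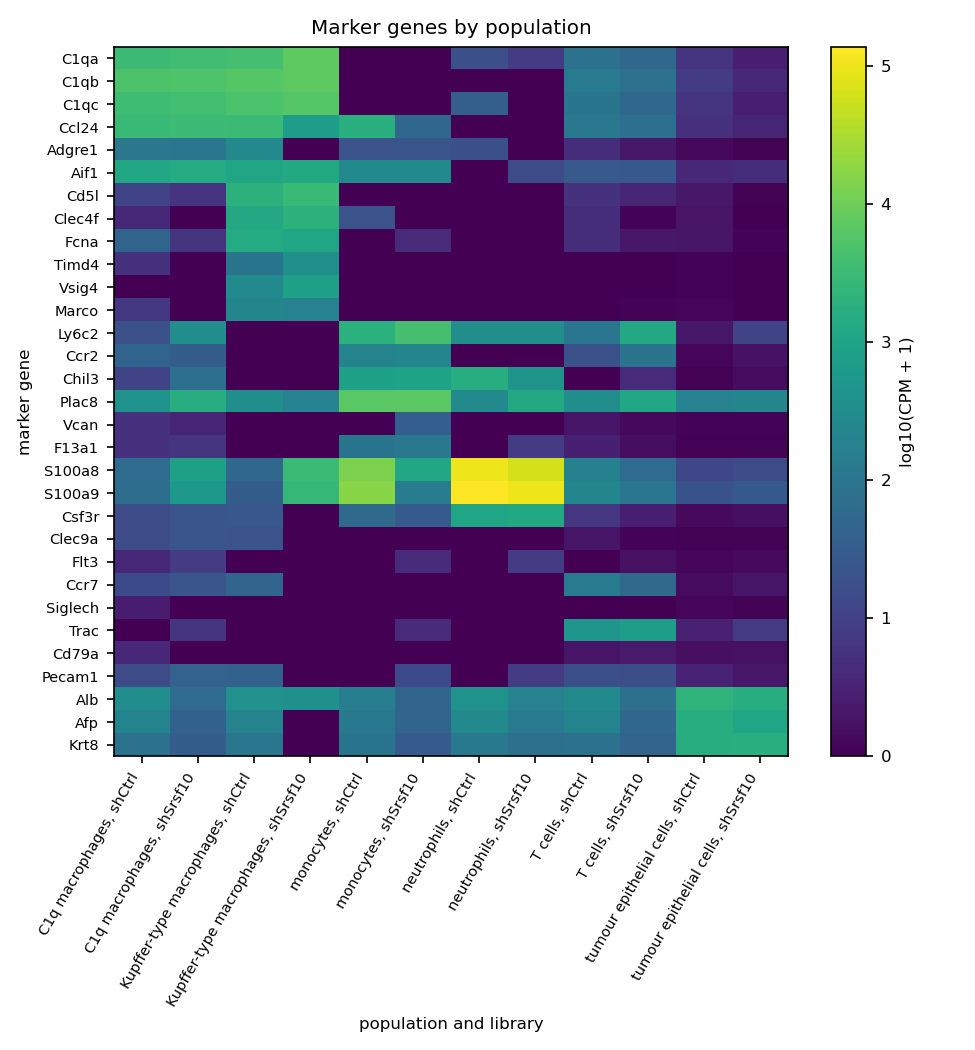
Level of marker genes (rows), as log10 of CPM plus 1, in members and in 5 comparison populations of each library (columns). Members are bright for C1qa, C1qb, C1qc, Ccl24 and Aif1, dimmer for Adgre1, and dark for Vsig4, Timd4 and most markers of lymphocytes and dendritic cells.

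The members summed to 680620 UMIs in shCtrl and 417201 in shSrsf10, with a median of 2066 and 3102.5 UMIs and 888 and 1098.5 genes per cell. Their median mitochondrial share was 0.314% and 0.0616%. RNA of tumour epithelial cells was present too, as 8 of their markers, the 2 keratins of the rule among them, summed to 1090 CPM in shCtrl members and 285 in shSrsf10 members. In the epithelial cells themselves they summed to 10529 and 8342. C1q RNA was also seen in T cells, with 3 or more C1q UMIs in 3.30% and 1.24% of them, against none of 54 and 138 neutrophils. Few T cells held it, with 141 C1qb UMIs in 6.91% of them in shCtrl and 558 in 2.26% in shSrsf10. Whether stray RNA or doublets gave it was not tested. The Cd3 limit left out 12 and 24 barcodes on its own and the keratin limit 68 and 23. Of the 728 and 448 highest doublet scores that Scrublet gave in each library, 9 and 1 belonged to members. The libraries shared 67 barcodes, which 3 shCtrl members and 0 shSrsf10 members carried. Xist, transcribed from the inactive X, had 52 and 5 UMIs in members, while the Y-linked Ddx3y had 9 and 10 and Eif2s3y 6 and 13. T cell and NK cell markers summed to at most 30.9 CPM and mast cell markers to 0 in both libraries. Cd3d, Cd3e and Cd3g, which the rule held at 0, were among the T cell markers. B cell markers summed to 66.1 and 43.1 CPM and endothelial markers to 66.1 and 95.9. Conventional dendritic markers summed to 26.4 and 38.4 CPM, with Cd209a at 0, and mature dendritic markers to 45.5 and 57.5. Plasmacytoid dendritic markers summed to 621 and 638 CPM, of which Bst2 made up 491 and 561, while Siglech had 1 and 0 UMIs. Srsf10 itself had 24 UMIs in shCtrl members, 35.3 CPM (22.6 to 52.5), and 17 in shSrsf10 members, 40.7 CPM (23.7 to 65.2). Their log2 ratio was 0.21 with an interval from -0.78 to 1.17, so a difference of Srsf10 in these cells was not detectable at this depth.

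Of barcodes that passed the gene and mitochondrial limits, members made up 2.64% (2.33 to 2.98) for shCtrl and 1.52% (1.26 to 1.83) for shSrsf10, a ratio of 0.577 (0.458 to 0.722). Of barcodes that also passed the keratin limit they were 11.8% (10.4 to 13.2) and 3.76% (3.11 to 4.49). T cells, with at least 2 Cd3 UMIs, were 15.5% and 61.3% of the same barcodes. Among 4 myeloid populations alone, members were 252 of 429 cells in shCtrl, 58.7% (53.9 to 63.4), and 114 of 303 in shSrsf10, 37.6% (32.1 to 43.3). The others were 105 and 4 Kupffer-type cells, 18 and 47 monocytes, and 54 and 138 neutrophils. By their share of all barcodes past the gene and mitochondrial limits, the ratio was 0.0486 (0.0130 to 0.128) for Kupffer-type cells, 3.33 (1.90 to 6.09) for monocytes and 3.26 (2.36 to 4.55) for neutrophils. Of the 4 populations, those 2 were higher in shSrsf10, and members and Kupffer-type cells lower. The unstated sort gate and the spin can set such shares, and their part cannot be told apart from the groups.

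Within members, 4943 genes had at least 20 UMIs over both libraries. Of these, 569 were at least 1.5-fold higher in shSrsf10, 11.5%, and 917 at least 1.5-fold lower, 18.6%. The median log2 ratio of all of them was -0.05. In simulated counts at this depth, 17.9% of genes set to be unchanged passed 1.5-fold in 1 direction or the other. The 569 and 917 can thus hold many genes that pass by counting error alone. Counts of higher and lower genes in the lists below are to be read beside these 11.5% and 18.6%. The 12 genes with the highest ratio, under the limits on UMIs and cells given with the methods, started with Ly6a, a surface protein that interferons induce. It stood at 182 CPM in shCtrl and 849 in shSrsf10, a log2 ratio of 2.22 (1.92 to 2.53). Napsa, an aspartic protease (1.83), Plac8 (1.82), the C-type lectin receptor Clec4a3 (1.51) and the nucleic acid sensor Zbp1 (1.42) came next. They were followed by the respiratory chain isoform Cox4i2 (1.37), the adaptor Scimp (1.30), Ms4a6d (1.27), the actin capper Capg (1.22), the chemokine Ccl5 (1.20), the phospholipase Plaat3 (1.18) and Ms4a4c (1.17). Ly6a was also higher in shSrsf10 in T cells (1.00) and tumour epithelial cells (3.16). Plac8 was uneven among shSrsf10 members, with a far higher level in those that held a Ly6c2 UMI, as given below.

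The 12 genes with the lowest ratio fell into 2 sets by known role, and 4 others. The heat shock genes Hspa1b (-4.44, -7.52 to -2.54), Hspa1a (-3.22) and Dnajb1 (-1.85) were one. Transcripts of secreted liver proteins were the other, with fibrinogen beta chain Fgb (-2.84), transthyretin Ttr (-2.62), alpha-fetoprotein Afp (-2.42), albumin Alb (-2.42) and Igfbp1 (-2.02). The rest were the lectin Mgl2 (-2.09), haem oxygenase Hmox1 (-1.94), Bri3 (-1.94) and the small GTPase Rab2a (-1.88). Bri3 was lower in shSrsf10 in the other populations too, at -3.39 in monocytes, -1.93 in neutrophils, -2.79 in T cells and -2.24 in tumour epithelial cells. Rab2a had -1.13, -1.59, -0.69 and -0.72 there, with an interval that reached 0 in monocytes. Of the liver transcripts, Alb was also lower in shSrsf10 T cells (-1.88), monocytes (-1.86) and neutrophils (-1.10), and in the tumour epithelial cells themselves at -0.48. With each cell thinned to 1000 UMIs, Alb was seen in 26.6% of shCtrl and 8.79% of shSrsf10 members, and in 22.2% and 8.05% of T cells. These shares of members are close to those of T cells, which should lack the gene. The part of stray tumour RNA was not tested, either in the liver transcripts or in the other lower genes.

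**Figure D3:**
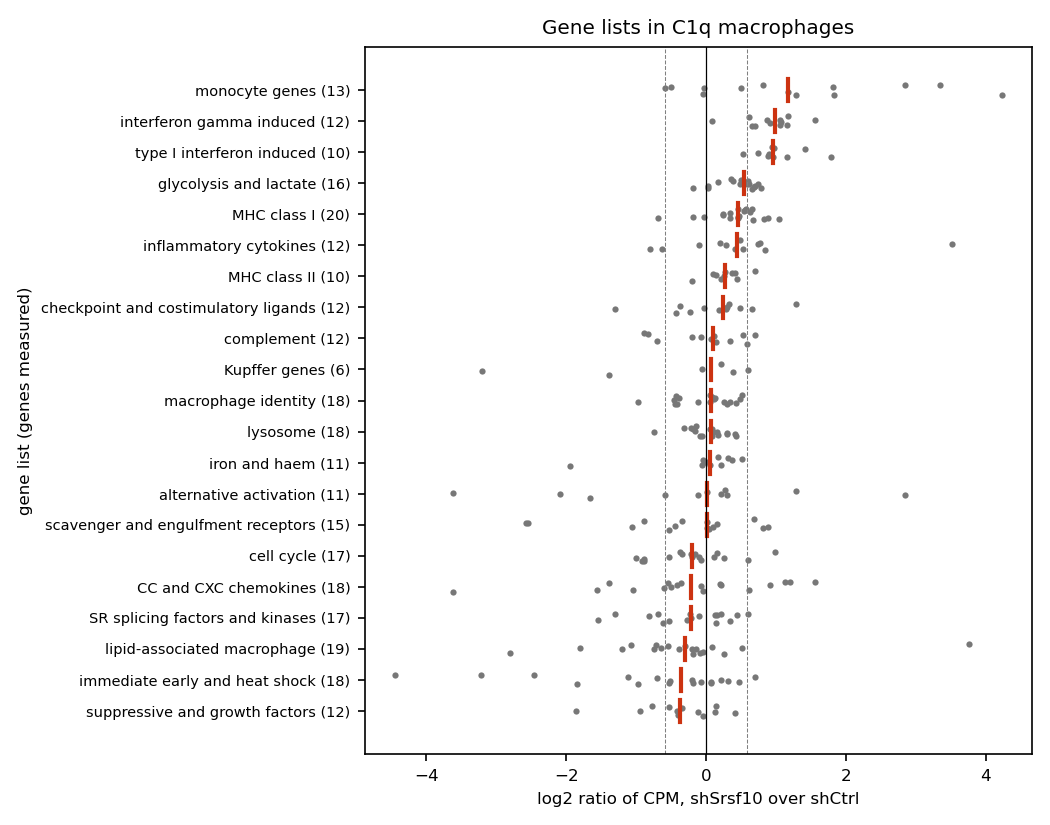
Log2 ratio of CPM, shSrsf10 over shCtrl, in members (horizontal axis) for the measured genes of 21 lists (rows, with the number measured); grey points are genes, red bars list medians, and dashed lines mark 1.5-fold. The monocyte, interferon gamma and type I interferon lists have the highest medians, at 1.17, 0.99 and 0.95, and the suppressive factor list the lowest, at -0.37.

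Interferon-induced genes were higher in shSrsf10 members in nearly every case measured. Of 12 measured genes of the interferon gamma list, 11 were at least 1.5-fold higher and 0 lower, with a median log2 ratio of 0.99. Of 10 of the type I interferon list, 9 were higher and 0 lower, with a median of 0.95. Over all measured genes 11.5% were higher and the median was -0.05. Of the 21 lists, these had the largest share of measured genes past the fold upwards. Without members that held a Ly6c2 UMI or at least 3 S100a8 and S100a9 UMIs, the counts were 11 of 12 and 7 of 9. The same 2 lists had medians of 0.64 and 1.60 in T cells, 2.19 and 2.14 in neutrophils and 2.46 and 1.26 in tumour epithelial cells, and of 0.41 and -0.39 in monocytes. The all-gene medians there were -0.16, 0.25, -0.05 and 0.21 in that order.

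Among the chemokines that draw T cells through Cxcr3, Cxcl9 (chromosome 5, 92321347 to 92328079) had 765 CPM (701 to 834) in shCtrl and 1450 (1337 to 1570) in shSrsf10, a log2 ratio of 0.92 (0.75 to 1.09). Cxcl10, which lies beside it on chromosome 5, had 430 and 657 CPM, a log2 ratio of 0.61 (0.37 to 0.85). The transcription factor Irf1, which carries the interferon signal on, was higher too, at 73.5 and 153 CPM, a log2 ratio of 1.06 (0.51 to 1.63). The guanylate-binding protein Gbp2, which acts on vacuoles of pathogens, had 79.3 and 168 CPM (1.08, 0.55 to 1.62), and the related GTPase Iigp1 29.4 and 86.3 (1.55, 0.73 to 2.42). Socs1, which dampens the signal, was the exception, at 29.4 and 31.2 CPM (0.08, -1.04 to 1.16). In the type I list, the ubiquitin-like protein Isg15 had 345 and 647 CPM (0.91, 0.65 to 1.16), Irf7 69.1 and 134 (0.96, 0.37 to 1.55) and Zbp1 97.0 and 259 (1.42, 0.96 to 1.88). Ifitm3 was the 1 gene of that list within 1.5-fold, at 1105 and 1589 CPM (0.52).

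Letters of a site through which interferon acts were looked for in RefSeq promoters of GRCm38.p6, which hold 250 bases before and 50 after each listed start. Only the 250 bases before the start were searched. The interferon response element was taken as TTTC, 2 bases of any kind and TTTC again, on both strands. Of 9 interferon gamma list genes with a promoter in the table, 6 held the response element (Cxcl10, Gbp2, Gbp3, Gbp7, Irgm1 and Socs1). Of 7 type I list genes, 2 held the response element (Isg15 and Rsad2). Counted by gene, as for the lists, 936 of 27025 genes held it, 3.46%. Socs1, whose log2 ratio was 0.08, also held the element. A match is a run of letters and was not tied to binding here. Below, 3 promoters of genes named above are shown from 250 bases before the start up to it, 5′ to 3′ on the gene's strand, with the matched letters in capitals. They are at chr3:142620413-142620662 (plus strand) for Gbp2, chr5:92348890-92349139 (minus) for Cxcl10 and chr4:156200819-156201068 (minus) for Isg15, where 3 matches overlap.
Gbp2: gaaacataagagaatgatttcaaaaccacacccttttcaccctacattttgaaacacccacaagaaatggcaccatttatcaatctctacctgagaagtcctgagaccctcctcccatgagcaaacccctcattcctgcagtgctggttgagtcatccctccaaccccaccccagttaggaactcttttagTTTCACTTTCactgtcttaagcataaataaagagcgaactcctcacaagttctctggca
Cxcl10: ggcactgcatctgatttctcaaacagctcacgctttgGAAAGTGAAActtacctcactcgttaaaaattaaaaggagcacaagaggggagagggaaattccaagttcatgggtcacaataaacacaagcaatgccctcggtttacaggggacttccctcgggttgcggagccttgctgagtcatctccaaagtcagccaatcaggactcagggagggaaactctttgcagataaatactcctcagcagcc
Isg15: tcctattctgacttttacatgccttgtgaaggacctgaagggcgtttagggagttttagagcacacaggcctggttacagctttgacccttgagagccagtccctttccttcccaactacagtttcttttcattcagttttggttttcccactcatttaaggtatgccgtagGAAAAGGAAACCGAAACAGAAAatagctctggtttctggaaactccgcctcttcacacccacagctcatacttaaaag

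A larger share of members held Cxcl9 and Cxcl10 in shSrsf10 at equal depth. Thinning each cell to 1000 UMIs left 199 shCtrl and 91 shSrsf10 members, with 53 and 23 shallower ones left out, and 293 and 1789 T cells with 40 and 71 left out. Before thinning, the kept members had a median of 2631 and 3710 UMIs and the kept T cells 2291 and 2570. The share of members with Cxcl9 was then 28.1% (22.01 to 34.9) for shCtrl, against 58.2% (47.4 to 68.5) for shSrsf10, and 41.7% and 76.3% unthinned. T cells, which should lack it, showed it in 0.683% and 1.17% at the same depth. Cxcl10 was seen in 9.05% (5.45 to 13.9) and 35.2% (25.4 to 45.9) of members. The share of T cells with Cxcl10 was 10.2% and 6.37%, so the shCtrl share of members did not exceed that of T cells. Isg15 was seen in 21.6% and 37.4% of members and 24.6% and 18.2% of T cells. T cells can express it, and the shCtrl share of members lay below that of T cells.

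**Figure D4:**
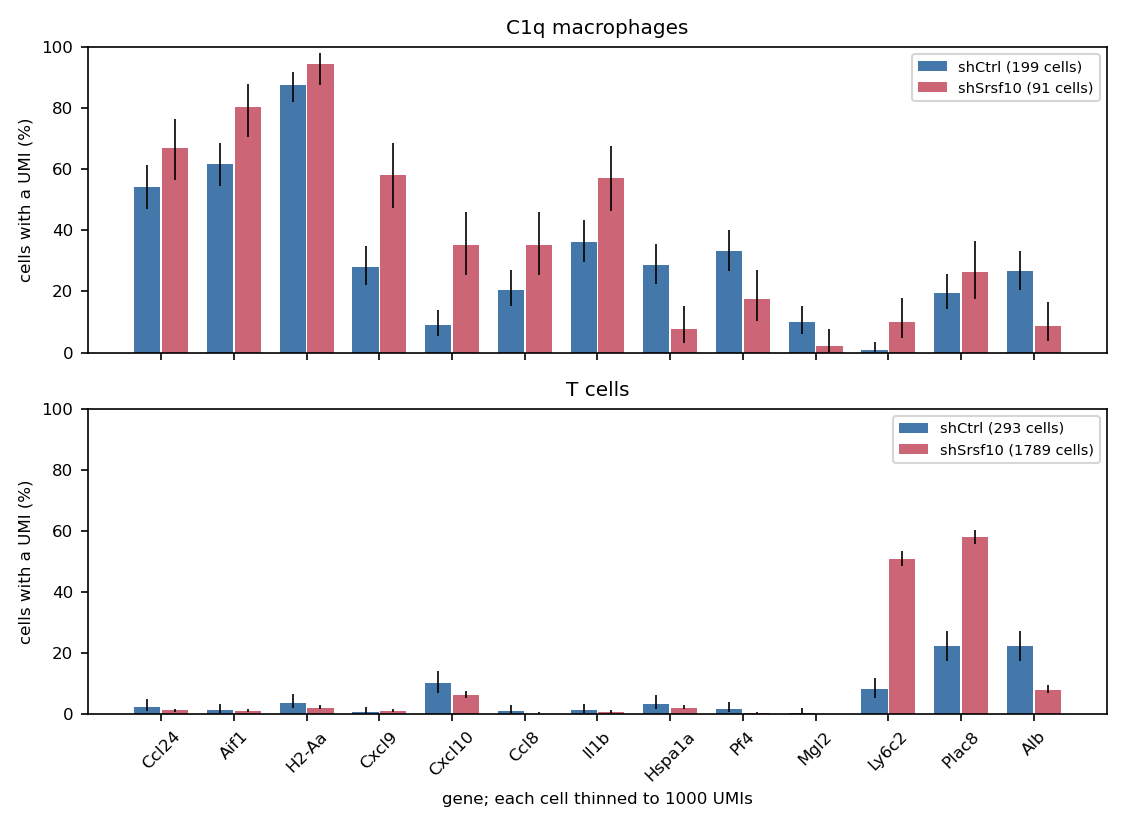
Share of cells with a UMI (vertical axis, percent) for single genes after each cell was thinned to 1000 UMIs, in members (top) and T cells (bottom); bars are the 2 libraries and lines exact 95% intervals. The intervals of Cxcl9, Cxcl10 and Hspa1a, among others, do not overlap between libraries in members. T cells are near 0 for Cxcl9 and Hspa1a and at 10.2% and 6.37% for Cxcl10.

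Of the antigen presentation genes, some of MHC class I were higher in shSrsf10 members. MHC class II genes, which show peptides to CD4 T cells, had a median log2 ratio of 0.27 over 10 measured genes. The 1 past 1.5-fold was Ciita, their transactivator, on 20 and 20 UMIs, a share near the 11.5% of all measured genes. H2-Aa had 6205 and 7510 CPM (0.28, 0.21 to 0.34), and the invariant chain Cd74 had 13804 and 16057 (0.22, 0.17 to 0.26). For MHC class I, which shows peptides to CD8 T cells, 6 of 20 genes were higher, 1 was lower and the median was 0.46. The immunoproteasome subunits Psmb10 (259 and 477 CPM, 0.88) and Psmb9 (322 and 515 CPM, 0.68) and the proteasome activator Psme2 (523 and 928 CPM, 0.83) were past the fold. The light chain B2m was just under the fold, at 3933 and 5872 CPM (0.58, 0.50 to 0.66). H2-Q6 was the 1 lower gene, at 69.1 and 43.1 CPM, and reads of the near-identical Q genes may be split between them.

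Glycolysis genes were higher as well, with 7 of 16 past 1.5-fold, 0 lower and a median of 0.54. Gapdh had 929 and 1493 CPM (0.69, 0.52 to 0.85), pyruvate kinase Pkm 704 and 1146 (0.70, 0.52 to 0.89) and enolase Eno1 160 and 276 (0.78, 0.39 to 1.17). Ldha, which makes lactate, had 705 and 985 CPM (0.48, 0.29 to 0.68), and the lactate exporter Slc16a3 61.7 and 103 (0.74, 0.09 to 1.39). At the entry steps, the glucose transporter Slc2a1 was at 63.2 and 64.7 CPM (0.03, -0.72 to 0.76, with a sign that turned under other scalings) and hexokinase Hk2 at 70.5 and 62.3 (-0.18, -0.93 to 0.54), both with intervals that hold 0 and reach up to about the list's median or past it. Hk1 had 10 and 6 UMIs and Myb 0 in both. The list summed to 4957 and 7404 CPM in members and to 6486 and 7786 in tumour epithelial cells. Without the genes that were higher in tumour epithelial cells, 8 were left, of which 2 were past the fold, with a median of 0.37.

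Signals to other leukocytes went both ways. Of 18 chemokine genes, 5 were higher and 5 lower. Besides Cxcl9 and Cxcl10, the monocyte attractant Ccl8 (chromosome 11, 82115185 to 82116799) had 497 CPM (445 to 552) and 1086 (988 to 1191), a log2 ratio of 1.13 (0.92 to 1.34). Ccl5, a T cell attractant, had 109 and 249 CPM (1.20, 0.75 to 1.65). T cells, which make it, held it at 3687 and 11875 CPM, and tumour epithelial cells at 7.05 and 95.2, and the part of stray T cell RNA in the value of members was not tested. Lower were Pf4, which macrophages share with platelets, at 788 (722 to 857) and 268 (221 to 323) CPM, a log2 ratio of -1.55 (-1.86 to -1.26), and Ccl2, the main ligand of the monocyte receptor Ccr2, at 222 and 108 CPM (-1.04, -1.55 to -0.55). Ccl17, on 20 and 1 UMIs, and Cxcl3, on 17 and 4, were lower on few transcripts, as was Ccl9, on 47 and 19. Cxcl1, the fifth of the higher genes, came from 5 shSrsf10 cells. Of 12 inflammatory cytokine genes, 4 were higher and 2 lower. Il1b, the pyrogenic cytokine, had 914 (843 to 989) and 1527 CPM (1411 to 1650), a log2 ratio of 0.74 (0.58 to 0.90), and was seen in 36.2% and 57.1% of thinned members, against 1.37% and 0.838% of T cells. Without members that held a Ly6c2 UMI or at least 3 S100a8 and S100a9 UMIs, its log2 ratio was 0.46, under 1.5-fold, and 2 of 11 genes of the list were higher and 1 lower. Ptgs2, the inducible prostaglandin synthase, had 5 UMIs in 3 shCtrl cells and 35 in 17 shSrsf10 cells. Il18 (-0.80) and the interleukin 1 antagonist Il1rn (-0.63) were lower, with intervals that reached 0.

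Of 15 measured genes of the scavenger and engulfment list, 3 were higher in shSrsf10 members and 4 lower, with a median log2 ratio of 0.01. With so few genes, these counts are near the shares of all measured genes, 11.5% higher and 18.6% lower. The 3 higher ones bind antibody complexes. Fcgr3, an activating receptor, had 348 (305 to 395) and 614 CPM (541 to 694), a log2 ratio of 0.82 (0.56 to 1.08). Fcgr4, the receptor for IgG2 antibodies, had 267 and 494 CPM (0.88, 0.59 to 1.18), and the inhibitory Fcgr2b 176 and 285 (0.69, 0.32 to 1.07). Fcgr1, another receptor for antibodies, stood at 135 and 141 CPM (0.07, -0.43 to 0.55). The 4 lower ones were the integrin Itgav (39 and 4 UMIs), the Mertk and Axl ligand Gas6 (19 and 2), Mfge8 (17 and 5) and the lipid receptor Cd36 (74.9 and 40.7 CPM, -0.88, -1.76 to -0.06). Mertk and Axl, which take up dying cells, stood at 120 and 88.7 CPM (-0.44, -1.04 to 0.13) and at 206 and 163 (-0.34, -0.78 to 0.09). Of the checkpoint ligands, Cd274, which encodes PD-L1, had 91.1 and 144 CPM (0.66, 0.12 to 1.19) and Pdcd1lg2, which encodes PD-L2, 12 and 18 UMIs (1.29, 0.16 to 2.48). These were the 2 higher of 12 genes, and Havcr2, on 24 and 6 UMIs, was the 1 lower.

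**Figure D5:**
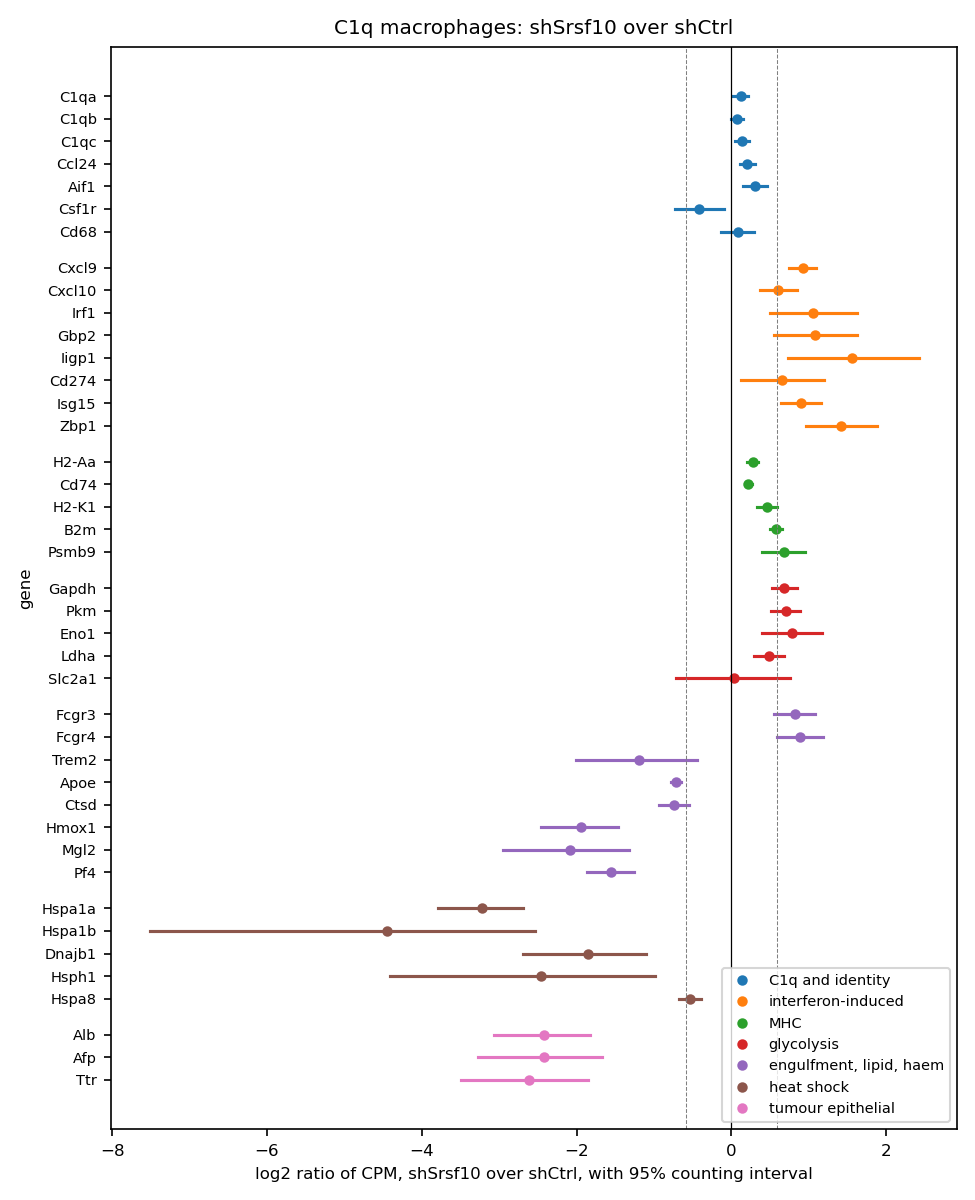
Log2 ratio of CPM, shSrsf10 over shCtrl, in members (horizontal axis) for single genes (vertical axis, coloured by role), with exact 95% counting intervals; dashed lines mark 1.5-fold. Interferon-induced genes lie to the right, heat shock and tumour epithelial genes to the left, and C1qa, C1qb and C1qc at 0.12, 0.08 and 0.14.

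Monocyte genes had the highest median of the 21 lists, 1.17 over 13 measured genes with 8 higher and 1 lower. Some were carried by few cells. Plac8 had UMIs in 66 shCtrl and 34 shSrsf10 members and Ms4a4c in 27 and 22. Ly6c2, the surface mark of inflammatory monocytes, had 12 UMIs in 7 shCtrl members and 138 in 13 shSrsf10 members, 17.6 and 331 CPM. After thinning, 1.01% and 9.89% of members held it. T cells express Ly6c2 themselves, so their share, 8.19% and 50.9%, is no measure of stray RNA, whose part in members was not tested. In the 13 shSrsf10 cells Plac8 was at 6383 CPM, against 576 in the other 101. Over all shCtrl members Plac8 stood at 438 CPM, so much of its higher level came from these 13 cells. The 13 cells also had less C1q than the others, with C1qb at 2668 against 5779 CPM, and more Il1b, at 2697 against 1292. S100a8, a neutrophil gene, was at 812.6 CPM in shSrsf10 members and 61.7 in shCtrl, and 1 shSrsf10 cell held 98.8% of those UMIs. Without members that had a Ly6c2 UMI or at least 3 S100a8 and S100a9 UMIs, 243 and 99 cells remained. The monocyte list then had 9 measured genes, 2 higher and 3 lower, and a median of 0.21. Neutrophil markers summed to 172 and 1465 CPM and fibroblast markers to 5.88 and 249, where 2 shSrsf10 cells held the 65 Col1a1 UMIs.

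Several heat shock genes were lower in shSrsf10 members. Of 18 immediate early and heat shock genes, 7 were lower and 1 higher, with a median of -0.36. The stress-induced chaperone Hspa1a had 692 CPM (631 to 757), from 98 of 252 shCtrl cells, and 74.3 (50.5 to 105), from 11 of 114 shSrsf10 cells, a log2 ratio of -3.22 (-3.79 to -2.69). Its near-identical neighbour on chromosome 17, Hspa1b, had 71 and 2 UMIs, and reads of the 2 genes may be split between them. The co-chaperone Dnajb1 had 147 and 40.7 CPM (-1.85, -2.69 to -1.10) and Hsph1 36 and 4 UMIs (-2.46). The constitutive Hspa8 had 1859 and 1285 CPM (-0.53, -0.68 to -0.39). The immediate early genes split, with Fosb at 270 and 125 CPM (-1.12, -1.59 to -0.67) and Jund at 287 and 146 (-0.97), but Fos at 162 and 225 (0.48) and Ier3 at 103 and 168 (0.71). After thinning, the share of members with Hspa1a was 28.6% (22.5 to 35.5) for shCtrl, then 7.69% (3.15 to 15.2) for shSrsf10, against 3.41% and 2.18% of T cells. Its ratio in other populations was -0.69 in monocytes (-2.03 to 0.91), -0.97 in T cells and -1.35 in tumour epithelial cells. Neutrophils held 25 Hspa1a UMIs in shCtrl and 0 in shSrsf10, with an interval of the log2 ratio that ends at -3.92. The median mitochondrial share of members, 0.314% and 0.0616%, moved the same way, and its part in the result was not tested.

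Genes of lipid-laden macrophages leaned lower, with 7 of 19 lower, 1 higher and a median of -0.29. The lipid receptor Trem2 had 104 (81.5 to 132) and 45.5 CPM (27.4 to 71.1), a log2 ratio of -1.20 (-2.01 to -0.45). Apoe, which carries cholesterol out of cells, had 10674 and 6512 CPM (-0.71, -0.78 to -0.65), but tumour cells express it too, and T cells showed it in 38.9% and 17.9% of thinned cells. The protease Ctsd had 1258 and 753 CPM (-0.74, -0.93 to -0.55), the lipid droplet protein Plin2 382 and 244 (-0.64, -0.99 to -0.31) and the lysosomal lipase Lipa 95.5 and 45.5 (-1.07, -1.89 to -0.31). Gpnmb had 51 and 9 UMIs, from 11 and 3 cells, and 1 shCtrl cell held 74.6% of the Spp1 UMIs. The higher gene, Fabp4, came from a single shSrsf10 cell. Fabp5, by contrast, had 1698 and 2421 CPM from 170 and 92 cells (0.51, 0.39 to 0.63).

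Alternative activation genes split by member. Mgl2, a lectin of macrophages and dendritic cells that binds sugars (chromosome 11, 70130329 to 70137550), had 163 (134 to 196) and 38.3 CPM (21.9 to 62.3), a log2 ratio of -2.09 (-2.94 to -1.33). Reads it shares with its close relative Clec10a may be split between them. Stat6, which relays interleukin 4, had 31 and 6 UMIs (-1.66). Arg1, which depletes arginine, had 109 and 134 CPM (0.30, -0.22 to 0.82), from 16 and 8 cells, and the mannose receptor Mrc1 50.0 and 50.3 (0.01, -0.85 to 0.84). The list had 2 higher and 3 lower of 11, where 11.5% of all measured genes were higher and 18.6% lower. Of 12 suppressive and growth factor genes, 0 were higher and 3 lower. With so few genes, both lists are near the shares of all genes. The lower suppressive and growth factor genes were Tgfb1, the suppressive cytokine, at 248 (212 to 289) and 129 (97.2 to 169) CPM (-0.94), Timp2 at 77.9 and 21.6 (-1.85) and Pdgfb, on 25 and 9 UMIs (-0.77). Among 11 iron and haem genes, Hmox1, which breaks down haem, was the 1 past the fold, at 378 (333 to 427) and 98.3 CPM (70.5 to 133), a log2 ratio of -1.94 (-2.45 to -1.46). It was seen in 17.6% and 14.3% of thinned members, so its share of cells differed less than its level.

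Core macrophage genes showed no such split. Of 18 identity genes, 1 was lower and 0 higher, with a median of 0.08 that turned to -0.04 when the CPM of single cells were averaged. The growth factor receptor Csf1r had 392 (347 to 442) and 295 CPM (245 to 352), a log2 ratio of -0.41 (-0.73 to -0.10), Cd68 680 and 721 (0.08, -0.13 to 0.30) and the transcription factor Cebpb, the lower gene, 89.6 and 45.5 (-0.98). Of 18 lysosome genes, 1, Ctsd, was lower and 0 higher. Complement was mixed, with 2 higher and 3 lower of 12 measured genes, the C1q genes of the rule among the 12. Factor B, Cfb, had 185 and 278 CPM (0.59, 0.21 to 0.96), while C3 had 170 and 95.9 (-0.83, -1.39 to -0.30) and the receptors C3ar1 (-0.88) and C5ar1 (-0.69) were lower. The integrin Itgam, on 10 and 10 UMIs, was the other higher gene. Of 6 measured Kupffer genes, 1 was higher and 2 lower. The rule capped Cd5l, Clec4f and Fcna together at 1 UMI per member, and 39 and 4 members held 1. Levels of these genes are thus limited by the choice of cells. Of 17 SR splicing factors and their kinases, 5 were lower and 1 higher, with a median of -0.22. Srsf2 had 92.6 and 52.7 CPM (-0.81, -1.58 to -0.09) and Srsf9 36 and 9 UMIs (-1.29). Of 17 cell cycle genes, 4 were lower and 2 higher (median -0.21). Members with at least 2 UMIs of Mki67, Top2a, Birc5, Ube2c and Cdk1 together were 42 in shCtrl, 16.7%, and 23 in shSrsf10, 20.2%.

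Members differed among themselves along their C1q content. Each library was split at its median C1q share of UMIs, and this describes the cells, since C1q chose them. In cells above the median, Ccl8 was at 774 CPM in shCtrl and 1664 in shSrsf10, against 133 and 276 in cells at or below it. Ccl24 was at 3668 and 4466 above, and 1764 and 1634 below. Clec1b, a lectin receptor, was at 192 and 275 above, and 74.8 and 57.5 below. Plac8 had the reverse order, at 127 and 608 above and 846 and 2860 below, as did Il1b, at 689 and 1216 above and 1210 and 1962 below. The cells above were also deeper, with a median of 2477 and 3658 UMIs against 1764.5 and 1843. The difference between libraries was present in both sets for Cxcl9, at 991 and 1816 CPM above and 469 and 938 below, and for Hspa1a, at 955 and 94.5 above and 347 and 46.0 below. Pf4 was at 797 and 394 CPM above, and at 775 and 92.1 below.

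Kupffer-type cells were frequent enough for a comparison in shCtrl. Of 4633 genes with at least 20 UMIs, 750, 16.2%, were at least 1.5-fold higher in members and 882, 19.0%, lower. Members had more MHC class II RNA, with 7 of 10 genes higher, 0 lower and a median log2 difference of 1.08. H2-Eb1 had 7487 CPM in members and 2842 in Kupffer-type cells (1.40, 1.29 to 1.51). The genes highest over Kupffer-type cells were Mgl2 (163 against 3.87 CPM, 5.40, 2.89 to 10.71), the matrix protein Thbs1 (4.14, 2.56 to 6.43), S100a4 (3.81, 2.23 to 6.11), Ccl5 (3.23, 1.62 to 5.54), Spp1 (3.11), Malt1 (2.94), Fcgr2b (2.51), Coro1a (2.10), Pf4 (1.97) and Gsn (1.77). The Spp1 ratio rests largely on 1 shCtrl cell, which held 74.6% of its 114 UMIs. Those lowest were Vsig4, with 0 UMIs in members and an interval of the log2 ratio that ends at -5.63, the scavenger receptor Marco (-5.26), Fabp7 (-5.05), the folate receptor Folr2 (-5.03), Apoc1 (-4.18), Fabp1 (-2.72), Hpgd (-2.67), Rasgrp2 (-2.49), Klf2 (-2.45) and Actn1 (-2.37). Iron genes were lower in 6 of 11, with Slc40a1 at 89.6 against 360 CPM (-2.01, -2.50 to -1.52). Immediate early and heat shock genes were lower in 13 of 18, with Hspa1a at 692 against 1076 CPM (-0.64, -0.85 to -0.42). Ccl8 (497 against 147 CPM) and Cxcl9 (765 against 406) were higher in members.

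Monocytes were taken as cells with 0 C1q UMIs, at least 3 of Ly6c2, Ccr2 and Chil3 together and at least 1 of Csf1r. They numbered 18 in shCtrl and 47 in shSrsf10, so values over them are coarse. The shCtrl monocytes also held neutrophil genes from few cells. S100a9 stood at 16635 CPM there, with a UMI in 5.56% of cells, and S100a8 at 12983 CPM, in 16.7%. In shCtrl 27.5% of 3836 measured genes were at least 1.5-fold higher in members and 28.4% lower, and in shSrsf10 21.8% and 23.9% of 3535. Lipid-associated genes were higher in members in 14 of 19 and 13 of 17, lysosome genes in 12 of 17 in both, MHC class II genes in 6 of 10 and 9 of 9, and chemokines in 11 of 17 and 12 of 16. The genes highest over monocytes in both libraries were Rgs1, Cd81, Cd63, Ccl12, Pf4, Igf1, Cxcl16, Cxcl9, H2-Eb1 and Ccl8. The tetraspanin Cd63 had 818 against 59.6 CPM in shCtrl and 796 against 13.5 in shSrsf10. Ccl8 had 0 UMIs in monocytes of both libraries, and the interval of its log2 ratio starts at 2.75 in shCtrl and at 6.45 in shSrsf10. Those lowest were Chil3, Ly6c2, Hp, S100a4, Anxa1, Alox5ap, S100a10, Lsp1, Arhgap45 and Plac8. Chil3 and Ly6c2 were among the genes that chose the monocytes. Plac8 had 438 against 6650 CPM in shCtrl and 1546 against 6598 in shSrsf10. Ccl24 had 2844 against 1806 CPM in shCtrl, where 3 of 18 monocytes held it, and 3286 against 50.4 in shSrsf10.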

How the data were processed

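Single-cell RNA-seq of 2 libraries was analysed from deposited matrices of UMI counts per gene and barcode, which are whole numbers and not normalized, per the file headers and values. Per the submitters' processing notes, the authors used Cell Ranger 6.1.0 and the mm10 build, and further filters are not given in the sources used here. The lowest UMI total per barcode was 500 in both libraries, and barcodes were 17 letters long. The matrices name 32285 features, of which 40 symbols have several IDs.

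Groups came from the sample labels, with 1 library each. Members followed the stated rule, and the 21 gene lists and the members were chosen with earlier results of these data known. UMIs were summed over members and scaled to CPM. Intervals are exact Poisson for levels, exact conditional binomial for ratios and Clopper-Pearson for shares. A gene was measured with at least 20 UMIs over both sums, and higher or lower past 1.5-fold. Genes named were the 12 with the largest ratio each way, and the 10 each way against other cells. They had at least 50 UMIs over both sums compared, 100 CPM in 1 of them and UMIs in 5 cells of the higher one. For the 12 each way, 1 cell held at most 25% of the higher library's UMIs, a limit not set against other cells. Genes of ribosomal proteins, mitochondria, haemoglobins, the X or Y linked sex genes, antigen receptor segments and those without a proper name were not eligible. From each list up to 6 genes with the largest ratio and those its roles need were named. Cells were thinned to 1000 UMIs for shares. Doublets were scored and not removed, since the automatic threshold marked 1 and 214 barcodes. Python 3.11.15, numpy 2.4.6, scipy 1.17.1, pandas 2.3.3 and scanpy 1.11.5 were used, and the scripts were tested on simulated data. Alternatives changed the scaling, the UMI minimum, the fold, the cell limits and the thinning depth. Promoter sequences and matches are from RefSeq GRCm38.p6, and gene positions from GENCODE annotation of GRCm38.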

Additional observations from a re-analysis of the deposited data

Results flagged for a closer look

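The cell cycle list took opposite directions against monocytes in the 2 libraries. Its median log2 ratio of members over monocytes was 1.41 in shCtrl, with 10 of 15 genes higher and 1 lower, and -1.06 in shSrsf10, with 0 of 16 higher and 11 lower. The tubulin gene Tubb5 had 541 CPM in members and 159 in monocytes of shCtrl, and 427 and 854 in shSrsf10. Between libraries the median of the list was 1.79 in monocytes, where the median of all genes was 0.21, and -0.21 in members. The monocytes numbered 18 and 47, and the difference was not tested.

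Ms4a4c, a membrane-spanning protein, was higher in shSrsf10 members, at 54.4 and 122 CPM, a log2 ratio of 1.17 (0.53 to 1.82). In monocytes its log2 ratio was -0.77. This difference was not tested either.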

How the results depend on the processing

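No value past the fold reversed under the alternatives run. The interferon gamma list kept a median of 0.87 to 1.07, the type I list 0.67 to 1.10 and the immediate early and heat shock list -0.60 to -0.19. List medians near 0 changed sign, most of all the engulfment receptors, from 0.01 to -0.52 with the CPM of single cells averaged, and the cell cycle list, from -0.21 to 0.05 without members with a Ly6c2 UMI or at least 3 S100a8 and S100a9 UMIs and 0.11 without tumour epithelial genes. Averaging single cells also turned the identity, iron, Kupffer, checkpoint and lysosome lists, and gave 0.57 for the monocyte list. Counts of genes moved with the limits. With 569 genes higher and 917 lower as the base, a minimum of 10 UMIs gave 954 and 1693, a minimum of 50 UMIs 240 and 264, and a fold of 2 gave 161 and 422. Averaging the CPM of single cells gave 1407 lower genes. Without genes higher in tumour epithelial cells, an alternative chosen after seeing the data, 379 and 470 remained. The median of the monocyte list moved from 1.17 to 0.21 without these members, also chosen after seeing the data. The share of shCtrl members with Ccl24 was 62.3% at 2000 UMIs and 63.5% unthinned, with Cxcl9 45.4% and 41.7%, and with Hspa1a 39.2% and 38.9%. The unthinned Cxcl9 share in shSrsf10 was 76.3%. The cause was not tested where fewer genes or deeper cells do not give it. Of values of named genes under alternatives, 697 stayed within their interval and 45 moved. Leaving out a library was not possible with 1 per group. No paired analysis was possible because each group has 1 library. Genes under 20 UMIs over both libraries were not counted, since depth limits them.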

Other observations

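A few cells set the level of several genes. The 266 UMIs of Fabp4 in shSrsf10 members came from 1 cell, the 339 of S100a8 from 5 cells with 98.8% in 1, and the 65 of Col1a1 from 2 cells. In shCtrl, 1 cell held 74.6% of the 114 Spp1 UMIs.

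Members with cycling genes differed from the whole. The 42 shCtrl and 23 shSrsf10 cells with at least 2 UMIs of Mki67, Top2a, Birc5, Ube2c and Cdk1 had Il1b at 482 and 610 CPM, against 914 and 1527 over all members. Cxcl9 stood at 1084 and 2049 CPM in them, against 765 and 1450. The cycling cells were also deeper, with a median of 3326.5 and 3858 UMIs.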
